A study of Homo sapiens with 6 samples.

Results

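The expression of 10 keratin genes was examined in drug-resistant breast cancer cells with and without cyperotundone (CYT), a compound from sedge. The genes were KRT7, KRT8, KRT10, KRT15, KRT17, KRT18, KRT19, KRT80, KRT81 and KRT86, taken by symbol from the 58302 genes of the count table. Both groups were of MDA-MB-231-DR, a derivative of MDA-MB-231, a triple-negative breast cancer line, that is kept in a low concentration of doxorubicin. The control group had 3 libraries and no treatment named in its labels, and the CYT group had 3 libraries of cells given CYT. The dose and the duration of CYT for these libraries are not given in the sources used here. The comparison asks which transcripts of the resistant cells differ after CYT. Total counts were 17357053, 17770102 and 14050849 in control libraries 1, 2 and 3, and 14106017, 13056270 and 13423683 in CYT libraries 1, 2 and 3. Nothing in the labels says that the replicates were separate cultures. The study's statistical methods state that group data averaged 3 independent experiments, without naming the sequenced libraries. The p-values therefore measure the spread between these libraries, which may be technical.

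The libraries were checked against marker genes of the line and of other cell types. All 6 markers of MDA-MB-231 were present, led by VIM, and their summed level was 4788, 4484 and 4875 CPM (counts scaled to a common library size) in control and 2305, 2299 and 2422 CPM in CYT libraries. Among 8 luminal markers, ESR1, PGR, TFF1 and CDH1 had at most 16 counts in any library. SPDEF, a luminal transcription factor, had 238, 134 and 157 counts in control and 0 in each CYT library, at least 50-fold lower against a floor of 3 counts per library. The summed level of the 8 luminal markers, led by SPDEF in control and FOXA1 in CYT, was 22.8, 20.1 and 21.7 CPM in control and 11.9, 14.9 and 6.83 CPM in CYT libraries. Without SPDEF the other 7 summed to 8.06, 13 and 10.4 CPM in control and the same values as before in CYT, so that the groups overlapped. The 5 basal markers, led by TP63, summed to at most 4.70 CPM in any library, and without TP63 the other 4 were at 0, 0.16 and 0.0719 CPM in control and 0.987, 2.28 and 2.15 CPM in CYT, higher in every CYT library. The 6 fibroblast markers, led by COL1A1, summed to 35.8, 19.1 and 23.6 CPM in control and 6.63, 4.41 and 6.04 CPM in CYT, and DCN had 0 counts throughout. The leukocyte markers reported, led by CD14, summed to at most 1.37 CPM in control and between 4.09 and 5.12 CPM in CYT, with CD3E at 0. The sums of the MDA-MB-231 and fibroblast markers were lower, and that of the leukocyte markers higher, in every CYT library than in every control library, also without the leading gene of each; the luminal sum was lower in every CYT library only with SPDEF. Their part in the keratin results was not tested.

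Keratins are the intermediate filament proteins of epithelial cells. Each filament is built from pairs of a type I (acidic) and a type II (basic) keratin, so that a cell needs both kinds. KRT8 and KRT18 form the basic pair of simple epithelia, KRT7 and KRT19 accompany them in ducts and glands such as the breast, and many carcinomas keep this simple-epithelial set. The type II genes and KRT18 lie together on chromosome 12, and the other type I genes lie on chromosome 17. In the following, a gene is called when its adjusted p in edgeR's quasi-likelihood test was under 0.05 and its absolute log2 fold change of CYT against control was over 1.

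After CYT, KRT19, KRT80 and KRT15 fell, and no keratin of the 10 was called higher. KRT19 fell 10.9-fold and KRT80 8.78-fold, while KRT7 and KRT8, which were among the most abundant, had overlapping groups. Of the 10 genes, 9 had enough counts for the test; 3 of these 9 were called lower and 0 called higher. Among all 15572 genes tested, 27.4% were called, 15.2% higher and 12.2% lower. The 33.3% of members called lower rests on 9 genes and is given as a description. Among the 4203 genes tested with a control mean of at least 50 CPM, 161 (3.83%) were called higher and 730 (17.4%) lower. Their median log2 fold change was -0.28. Of the 9 members, 6 belong to this set, with 0 called higher, 2 called lower and a median of -0.74. The floor uses the control mean alone, so it keeps genes that fell from above it and leaves out genes that rose from below it. KRT19 and KRT80 passed it only through the control group. No higher call was made among the members by DESeq2, limma or edgeR under any other setting run. All 9 estimates of the main fit were negative. In bulk RNA, fewer cells with a transcript and less transcript per cell cannot be told apart.

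KRT19, the smallest keratin and a marker of ductal and luminal cells, lies at chr17:41523617-41528308 (GRCh38, minus strand). It had 6722, 3767 and 3395 counts in control libraries 1, 2 and 3 and 546, 147 and 378 in CYT libraries 1, 2 and 3. Every control library was far above every CYT library. At 287 ± 114 CPM in control and 26.3 ± 14.4 CPM in CYT (SD, n = 3), its log2 fold change was -3.45 (SE 0.52, 95% CI -4.61 to -2.28). The adjusted p was 0.00187 in edgeR.

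KRT80, a type II keratin with no established single partner, lies at chr12:52168996-52192000 on the minus strand. Its counts were 3029, 2333 and 1677 in control and 284, 99 and 279 in CYT. The groups lay apart as they did for KRT19, with CYT replicate 2 the lowest for both genes. KRT80 measured 144 ± 37.8 CPM in control and 16.4 ± 8.18 CPM in CYT (SD, n = 3). The log2 fold change was -3.13 (SE 0.46, 95% CI -4.17 to -2.10), with an adjusted p of 0.00171 in edgeR. Both genes were still called whichever single library was left out.

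KRT15, a keratin of basal and progenitor cells in stratified epithelia, lies beside KRT19 at chr17:41513743-41522529. It was scarce, with 101, 46 and 74 counts in control and 24, 13 and 16 in CYT. The groups did not overlap, although control replicate 2 was close to the CYT libraries at 2.45 CPM against 1.69, 0.925 and 1.27 CPM. KRT15 fell 3.58-fold, a log2 fold change of -1.84 (SE 0.50, 95% CI -2.95 to -0.73), with an adjusted p of 0.0213 in edgeR. The call was lost without control replicate 1 (adjusted p 0.0812), control replicate 3 (0.0717) or CYT replicate 3 (0.0682), within a range of 0.00555 to 0.0812 over all alternatives.

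**Figure D1:**
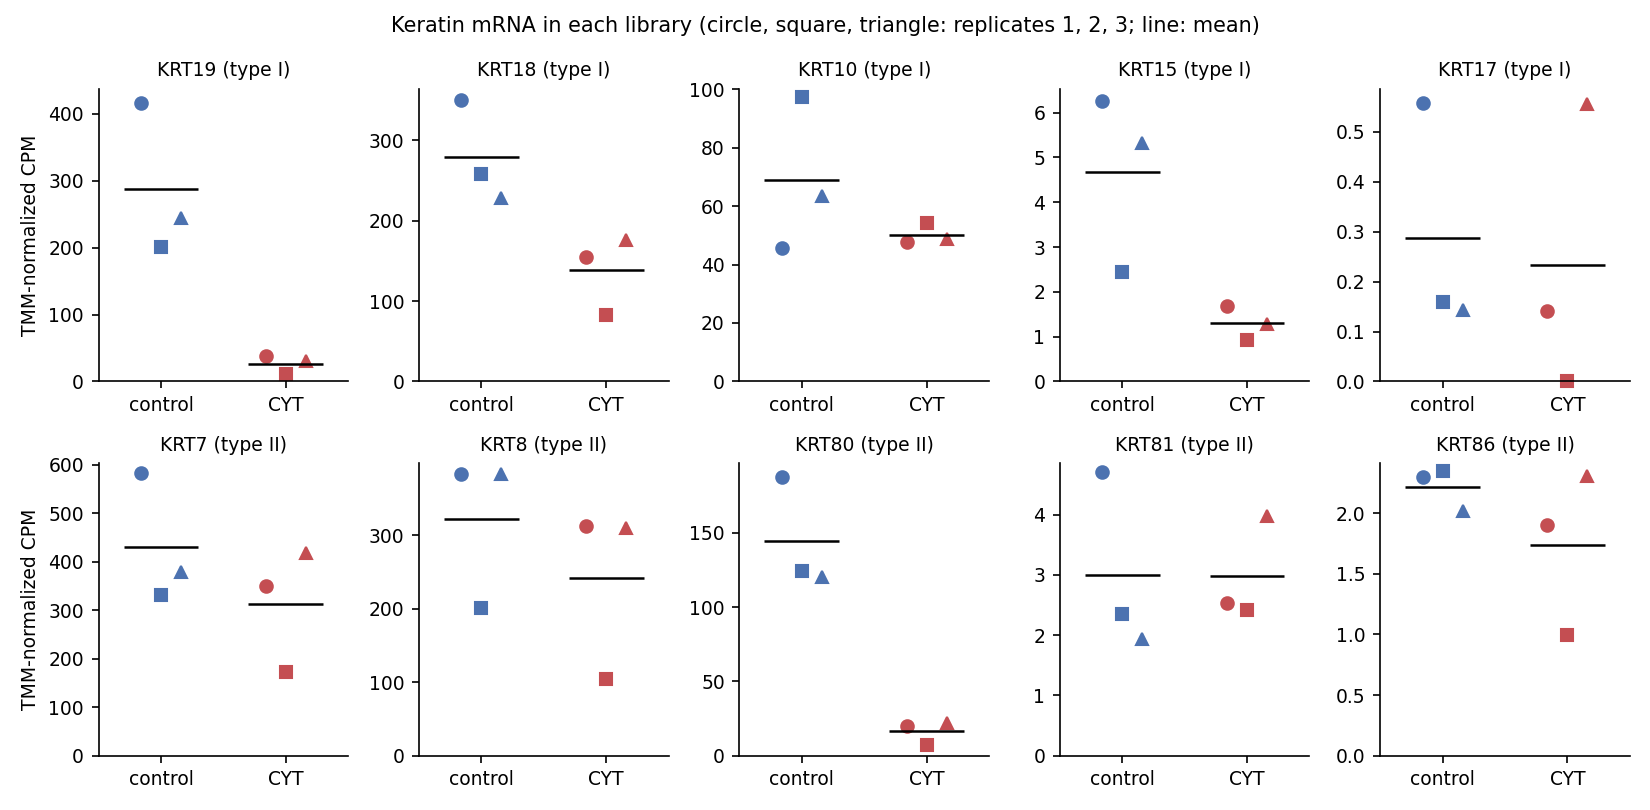
TMM-normalized CPM of each keratin in the 3 control (blue) and 3 CYT (red) libraries, each panel on its own linear axis from 0; symbols mark replicates 1, 2 and 3 and the line is the group mean. KRT19 and KRT80 in CYT sit between 7.05 and 38.5 CPM, below every control library, whereas KRT7, KRT8, KRT10, KRT17, KRT81 and KRT86 overlap.

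KRT18, the type I partner of KRT8, stood at the edge of the call. Its locus is chr12:52948871-52952901 on the plus strand. It had 5654, 4858 and 3180 counts in control and 2200, 1166 and 2218 in CYT, and all of CYT lay below all of control. The levels were 279 ± 63.5 CPM and 138 ± 48.9 CPM (SD, n = 3). The log2 fold change was -1.02 (SE 0.35, 95% CI -1.80 to -0.23), and the adjusted p of 0.0549 in edgeR missed the threshold. With the replicate number as a block the log2 fold change was -1.07 and the adjusted p 0.0193, which is a call; over all alternatives the adjusted p ran from 0.0193 to 0.169.

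KRT8, at chr12:52897187-52949954 on the minus strand, had 6177, 3767 and 5341 counts in control and 4426, 1460 and 3902 in CYT. Its count of 3767 in control replicate 2 equals that of KRT19 in the same library. CYT replicates 1 and 3, at 312 and 310 CPM, lay inside the control range of 201 to 384 CPM, and CYT replicate 2 lay below it at 104 CPM. The log2 fold change was -0.41 (SE 0.44, 95% CI -1.41 to 0.58; adjusted p 0.519 in edgeR). The interval spans both directions. Without CYT replicate 2 the log2 fold change was -0.05. Against the control library of the same number, KRT8 was lower in each CYT library, and with the replicate number as a block its log2 fold change was -0.52 (SE 0.25) and it was still not called.

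KRT7, the type II keratin of ducts and glands, lies at chr12:52232520-52252186 on the plus strand. It had 9398, 6225 and 5259 counts in control and 4974, 2412 and 5260 in CYT, the most counts of the 10 genes in every library but control replicate 3. At 418 CPM, CYT replicate 3 was above control replicates 2 and 3 (331 and 378 CPM), and CYT replicate 2 was the lowest at 172 CPM. Its log2 fold change was -0.46 (SE 0.38, 95% CI -1.31 to 0.39; adjusted p 0.398 in edgeR), and -0.16 without CYT replicate 2.

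That library was also the one least like the others of its group. Across the genes tested, its log2 CPM had a Pearson correlation of 0.905 and 0.904 with the other CYT libraries, whereas those had 0.970 with each other and the control libraries had 0.953 to 0.971. Genes are not independent replicates, so these values are a description. Of the 6 abundant keratins, KRT7, KRT8, KRT18, KRT19 and KRT80 were lowest in CYT replicate 2, and KRT10 was not. Without it KRT19, KRT80 and KRT15 were still called, at log2 fold changes of -3.06, -2.77 and -1.64.

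KRT10, known from the suprabasal layers of the epidermis, lies at chr17:40818117-40822595 on the minus strand. It had 735, 1831 and 881 counts in control and 676, 762 and 615 in CYT. The 3 CYT libraries lay close together at 47.7, 54.2 and 48.9 CPM, while control replicate 2 stood high at 97.5 CPM and control replicate 1 was below all of CYT at 45.6 CPM. The log2 fold change was -0.45 (SE 0.34, 95% CI -1.20 to 0.30; adjusted p 0.342 in edgeR).

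KRT17, a keratin of basal cells and of wounded or proliferating epithelium, was near the limit of detection. Its counts were 9, 3 and 2 in control and 2, 0 and 7 in CYT, so it was too low for the test. Fitted without the filter on low counts, its log2 fold change was -0.36, with a 95% CI of -2.83 to 2.11 (adjusted p 0.851 in edgeR). This interval is wide and leaves both directions possible. Of the 50-base windows in its main transcript, 17.4% also occur in other genes. Its pseudogenes had 6 counts in CYT replicate 3 and none in the other libraries.

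KRT81 and KRT86 are type II hair keratins, which are also transcribed in some breast carcinomas. KRT81 had 76, 44 and 27 counts in control and 36, 34 and 50 in CYT. Its log2 fold change was -0.01 (SE 0.47, 95% CI -1.07 to 1.04; adjusted p 0.986 in edgeR), and its sign turned under several alternatives. KRT86 had 37, 44 and 28 counts in control and 27, 14 and 29 in CYT, with a log2 fold change of -0.36 (SE 0.46, 95% CI -1.38 to 0.67; adjusted p 0.594 in edgeR). The groups overlapped for both genes.

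These are near-identical genes, and their counts are uncertain where the counting could split reads between them. Over 1454 aligned bases of coding sequence, 1369 (94.2%) were identical. Of all windows of 50 bases in the main transcript of KRT81, 38.4% also occur in KRT86, and of those in KRT86, 33.3% occur in KRT81. The longest coding run that both share without a mismatch has 309 bases, in exon 1 of KRT81 and exon 3 of KRT86. With the counts of KRT81, KRT83 and KRT86 summed into 1 feature, the log2 fold change was -0.09 (adjusted p 0.888 in edgeR), so the summed feature was not called either.

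**Figure D2:**
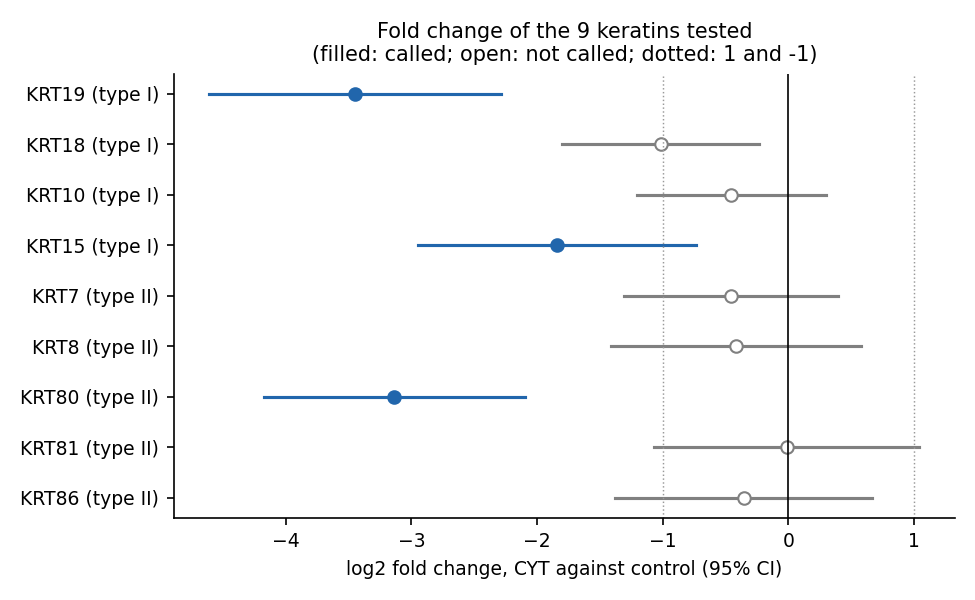
Log2 fold change of CYT against control for the 9 keratins tested, with 95% confidence intervals; filled symbols were called and dotted lines mark 1 and -1. KRT19, KRT80 and KRT15 are filled, at -3.45, -3.13 and -1.84, and KRT18 is open at -1.02.

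Levels of different genes can be compared only per length. In the deposited FPKM (counts scaled by library size and gene length), the length of a gene was the sum of all its distinct annotated exons, so that overlapping exons of alternative transcripts counted more than once. This held within 1 bp for 9329 of 9731 genes compared. It made KRT8 6.69 times and KRT18 4.22 times as long as their main transcript, but KRT10 only 1.1 times, and put KRT10 at rank 4 of the 10 genes in control on the FPKM scale. Levels between genes are therefore given as CPM per kb of the main transcript, and FPKM, which leaves the comparison of a single gene between libraries unchanged, is kept for the sums, whose makeup depends on the scale.

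On that scale, KRT7 led the control libraries at 246 ± 76.2 CPM per kb, followed by KRT19 at 207 ± 82.3, KRT18 at 179 ± 40.7 and KRT8 at 152 ± 49.7 (SD, n = 3). Each of these 4 differed from the next in this order by less than the larger of their SDs. KRT80 (37.4 ± 9.80 CPM per kb) and KRT10 (32.4 ± 12.4 CPM per kb) came next and did not differ beyond their spread. KRT81, KRT86, KRT15 and KRT17 were all under 2 CPM per kb on average, at 1.55, 1.0, 0.893 and 0.189 CPM per kb.

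In CYT the order was KRT7 (179 ± 72.6 CPM per kb), KRT8 (114 ± 56.3) and KRT18 (88.4 ± 31.3), which as neighbours did not differ beyond their spread. KRT19 dropped from rank 2 to rank 5, at 18.9 ± 10.3 CPM per kb, beside KRT10 at 23.7 ± 1.65 CPM per kb. KRT80 stood at 4.25 ± 2.12 CPM per kb, and the 4 scarce keratins kept ranks 7 to 10.

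The makeup of the keratin mRNA differed between the groups. KRT19 made up 26.9%, 21.4% and 22.4% of the summed keratin level per kb in control libraries and 5.46%, 3.13% and 3.90% in CYT libraries. KRT7 made up 29.8%, 28.0% and 27.5% in control and 39.4%, 40.8% and 43.0% in CYT. Neither gene's shares overlapped between the groups, and the exact permutation p was 0.1 for each, the smallest that 3 against 3 libraries can give. KRT18 held 21.1% ± 3.04 of the sum in control and 20.7% ± 1.31 in CYT (SD, n = 3). Within type I, KRT19 made up 48.2% ± 7.23 in control and 13.4% ± 4.85 in CYT, and KRT18 42.9% ± 3.03 and 65.2% ± 5.26. On the FPKM scale KRT18 made up 30.2% ± 1.08 of type I in control and 40.5% ± 8.21 in CYT (SD, n = 3). A share depends on all keratins of a library, so a larger share of KRT7 or KRT18 is no higher level.

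**Figure D3:**
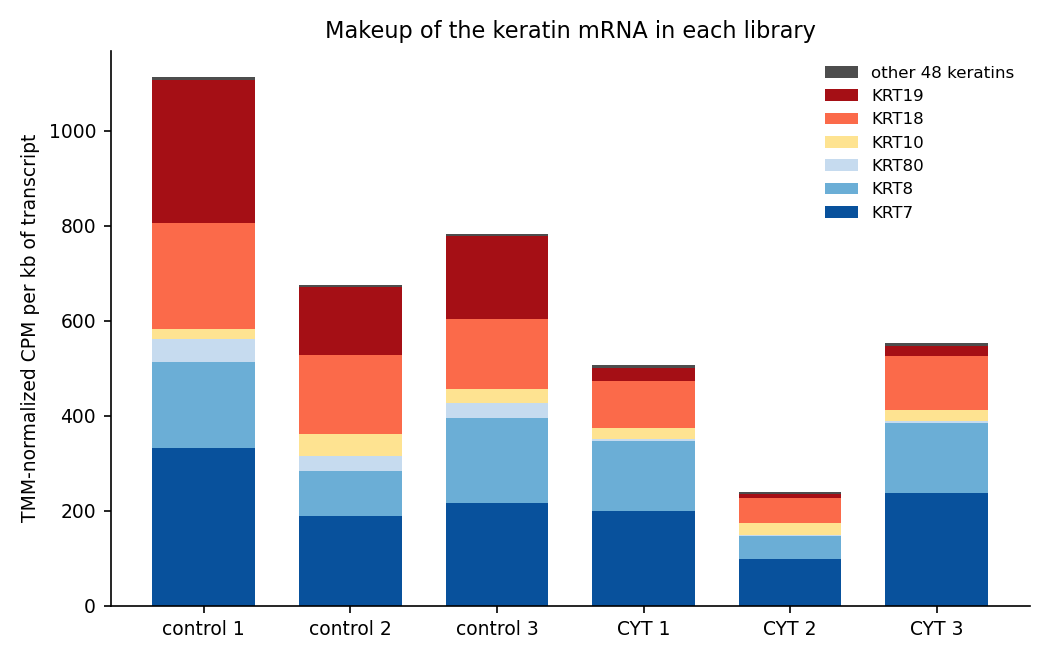
Stacked bars of the keratin mRNA of each library in TMM-normalized CPM per kb of the main transcript, from 0, for the 6 most abundant keratins and all others. The KRT19 segment (dark red, top) is 144 to 300 CPM per kb in control and 7.53 to 27.7 CPM per kb in CYT, and the bars of the 3 CYT libraries are the shortest.

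Total keratin mRNA was lower in each CYT library. Summed over 54 keratin genes, the TMM-scaled FPKM was 306, 206 and 216 in control and 132, 75.2 and 144 in CYT libraries. The log2 difference was -1.08 (exact permutation p = 0.1, two-sided, the smallest possible). The lower sum lay mainly in the type I genes, at 140 ± 27.7 FPKM in control and 50.5 ± 9.03 FPKM in CYT without overlap. Much of this was KRT19 alone, at 67.1 ± 26.7 FPKM in control and 6.15 ± 3.36 FPKM in CYT. A fall of type I genes as a class was not tested. Type II genes summed to 102 ± 29 FPKM and 66.6 ± 27.8 FPKM (SD, n = 3), with overlapping groups, although each CYT library was below the control library of the same number. The 10 genes held 99.7% of the summed keratin FPKM in control and 97.5% in CYT.

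Because type I and type II proteins pair one to one, the ratio of their mRNA was taken within each library, where library size cancels. It was 1.28, 1.67 and 1.25 in control and 0.712, 1.14 and 0.646 in CYT on the FPKM scale. On this scale KRT19 made up 46.9% ± 10.2 of the type I sum in control and 11.6% ± 5.20 in CYT (SD, n = 3). The ratio therefore takes in the fall of KRT19, and a ratio without KRT19 was not computed. On the full sums the groups did not overlap, but CYT replicate 2 was close to control replicates 1 and 3. The log2 difference was -0.78 (exact permutation p = 0.1, two-sided; 0.125 adjusted over the 5 ratios computed). Per kb of the main transcript, a scale added after the FPKM lengths were seen, the ratio was 0.971, 1.12 and 0.824 in control and 0.429, 0.585 and 0.406 in CYT, a log2 difference of -1.05.

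The ratios of single pairs were taken in the same way. Those with KRT19 or KRT80 were not among the planned comparisons. They set a gene called lower over a gene not called, so they restate those calls and are a description. KRT18 over KRT8 was 1.25, 1.76 and 0.810 in control and 0.677, 1.09 and 0.774 in CYT per kb, with overlapping groups (exact permutation p = 0.2), and it was lower in CYT within each same-numbered pair. KRT19 over KRT7 was 0.903, 0.764 and 0.815 in control and 0.139, 0.0769 and 0.0907 in CYT per kb, 8.35-fold lower (exact permutation p = 0.1, the smallest possible). The spread of this ratio within a group was small beside the difference. KRT80 over KRT7, both type II, was 6.77-fold lower in CYT, and KRT19 over KRT18, both type I, 5.69-fold lower (exact permutation p = 0.1 for each).

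**Figure D4:**
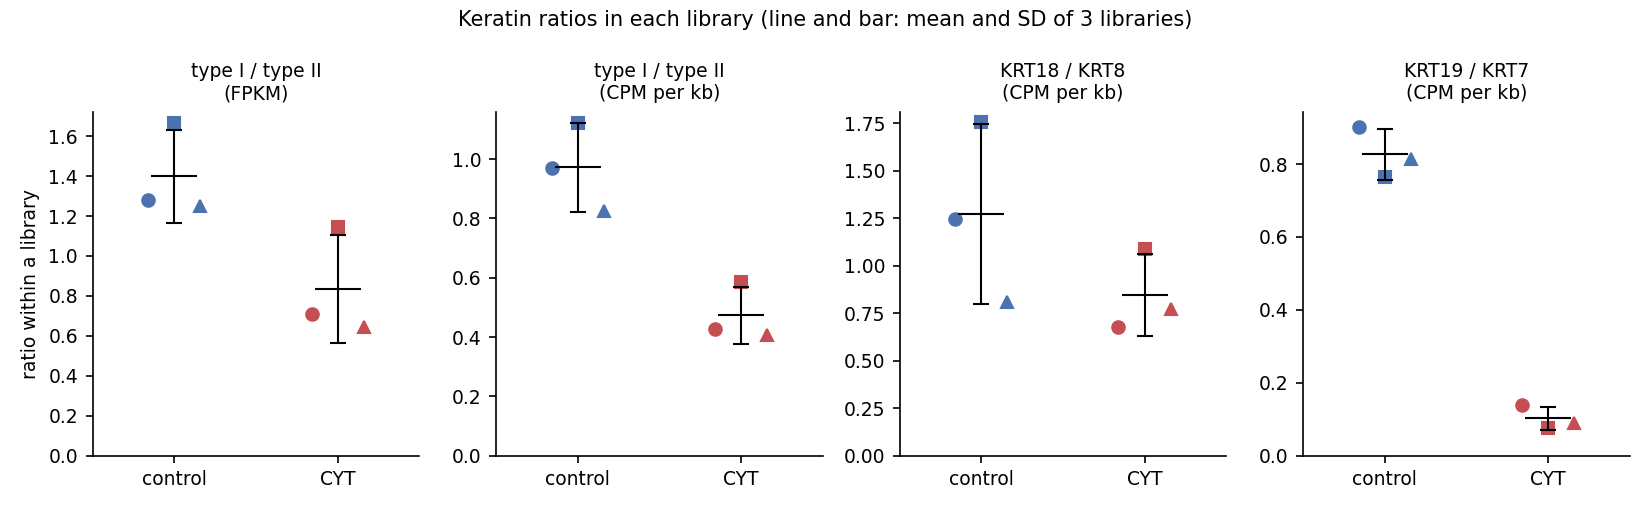
Ratios of keratin mRNA within each library, on linear axes from 0, with the mean and SD of 3 libraries in black and symbols for replicates 1, 2 and 3. The type I to type II ratio is lower in every CYT library on both length scales, KRT18 over KRT8 overlaps between groups, and KRT19 over KRT7 is 0.764 to 0.903 in control and 0.0769 to 0.139 in CYT.

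Over the 6 libraries, KRT19 and KRT80 had the most similar patterns among the 6 abundant keratins. By the Euclidean distance between gene-centred log2 CPM, they were 0.62 apart, KRT7 and KRT8 0.69 and KRT7 and KRT18 0.75. KRT8 and KRT18, partners in the filament, were 1.15 apart, and KRT8 and KRT19 3.79. Among 11416 genes with a mean of at least 5 CPM, those nearest to KRT8 were DPP7, a lysosomal peptidase (distance 0.06), RBM42, an RNA-binding protein (0.19), and ROBO3, a guidance receptor (0.20). Nearest to KRT18 were PC, the mitochondrial pyruvate carboxylase (0.10), TBRG4 (0.14) and SLC25A11, a mitochondrial carrier (0.21). The median gene was at 2.08 from KRT8 and 1.91 from KRT18.

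The other 44 keratin genes were close to silent. Only KRT34, a type I hair keratin, reached the test, with 18, 13 and 16 counts in control and 8, 0 and 0 in CYT (log2 fold change -2.30, SE 1.0, adjusted p 0.114 in edgeR). KRT34 was called lower under 2 of 12 alternatives. Of these, 1 left out CYT replicate 1, the only CYT library with a count of it. There the adjusted p was 0.0126 in edgeR, within 0.0126 to 0.275 over all alternatives. No other keratin gene had more than 13 counts in a CYT library. Of the 44 genes, 37 had no count in any control library, and 26 of these 37 had at least 1 count in a CYT library.

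These low counts were spread over many genes. KRT5, the basal type II keratin, had 2, 9 and 11 counts in CYT, and KRT27, a keratin of the hair root sheath, had 5, 5 and 6; both had 0 in control. KRT34, KRT5 and KRT27 were chosen after their values were seen. In all, 23, 21 and 20 of the 44 genes had a count in CYT libraries 1, 2 and 3, against 5, 4 and 2 in control libraries 1, 2 and 3. The number of genes of any kind with a count moved the same way, at 20888, 21085 and 21422 in control and 25191, 23548 and 24652 in CYT. Total counts were lower in CYT than in control libraries, except in CYT library 1 (14106017) against control library 3 (14050849). Whether this wider detection accounts for the scattered keratin counts was not tested.

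Besides KRT17, described above, rows of pseudogenes and antisense genes bear on the counts of KRT7, KRT8 and KRT18. KRT8P12, a transcribed processed pseudogene of KRT8 at chr3:160565447-160569248, had 46, 57 and 50 counts in control and 311, 307 and 336 in CYT. It rose 7.42-fold, a log2 fold change of 2.89 (SE 0.33, adjusted p 0.00063 in edgeR), in the opposite direction to the estimate for KRT8. Its sequence is 90.5% identical to the coding sequence of KRT8 over 1385 aligned bases, but only 0.2% of its 50-base windows occur in KRT8. It also overlaps KPNA4 on the opposite strand by 142 exonic bases, and without a stated strand setting reads of both cannot be told apart.

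KRT18P34 on chromosome 3 had 2, 5 and 2 counts in control and 32, 35 and 49 in CYT, a log2 fold change of 3.92 (SE 0.57, adjusted p 0.0016 in edgeR). It overlaps AC104411.1, an antisense gene on the opposite strand, by 203 exonic bases, so the same limit on strand holds for its reads. By contrast KRT8P3, which shares 28.2% of its 50-base windows with KRT8, had 262, 119 and 203 counts in control and 135, 35 and 105 in CYT without a call (its log2 fold change was -0.87, adjusted p 0.253 in edgeR). All pseudogenes of KRT8 together had 6.19% of the count of KRT8 in control and 14.5% in CYT. Among them KRT8P12, with few windows in common with KRT8, had 153 counts in control and 954 in CYT over 3 libraries each. KRT8P3 had 584 and 275. For KRT18 the shares were 0.234% and 4.64%. With each keratin summed with its pseudogenes, the log2 fold change was -0.31 for KRT8 and -0.95 for KRT18, and neither was called.

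KRT7-AS, an antisense gene that overlaps KRT7 by 282 exonic bases, had 36, 38 and 40 counts in control and 7, 0 and 6 in CYT. It fell with a log2 fold change of -2.85 (SE 0.77, adjusted p 0.0215 in edgeR), while KRT7 was not called. The call was lost without control replicate 1, control replicate 3 or CYT replicate 3 (adjusted p 0.0572, 0.0769 and 0.0550, within a range of 0.00173 to 0.0769 over all alternatives). KRT8 and KRT18 themselves overlap by 525 exonic bases on opposite strands, 16.3% of the exonic sequence of KRT18. The strand setting of the counting is not given in the sources used here, so the division of such reads is uncertain.

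Keratin filaments end at desmosomes and hemidesmosomes and are linked by plakins, and several of these partner genes fell after CYT. Of 34 partner genes, 26 were tested, 7 fell, 1 rose and 18 were not called. Their median log2 fold change was -0.60, beside 0.01 over all 15572 genes tested. The share called was 30.8%, beside 27.4% of all genes. By direction, 26.9% were called lower and 3.85% higher, beside 12.2% and 15.2% of all genes. Of the 17 tested partner genes with a control mean of at least 50 CPM, 4 were called lower and 1 higher, with a median of -0.25. Over all tested genes above that floor, 17.4% were lower and 3.83% higher, with a median of -0.28. The floor uses the control mean alone and so favours genes that fell. EVPL, ITGB4 and PKP3 passed it only through the control group. By sub-list, 37.5% of 8 desmosome, 50% of 4 plakin, 25% of 4 hemidesmosome and 20% of 10 keratin-binding genes were called. The share over all genes was 27.4%. These shares rest on few genes and are a description of the list. EVPL, PLEC, ITGB4 and PKP3 had the largest falls, and DSP, the plakin that ties keratins to the desmosome, was higher.

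In the plakin list, 2 of 4 genes tested were called. PLEC encodes plectin, which links intermediate filaments to other parts of the cytoskeleton and to hemidesmosomes. It had 28929, 13323 and 13421 counts in control and 2459, 1499 and 4321 in CYT. Control replicate 1 was high, and all CYT libraries were below all controls. PLEC fell 5.56-fold (log2 fold change -2.48, SE 0.50, adjusted p 0.00598 in edgeR). EVPL, which encodes envoplakin of the cornified envelope, had 1676, 700 and 514 counts in control and 73, 52 and 89 in CYT, and fell 11.2-fold (log2 fold change -3.48, SE 0.51, adjusted p 0.0016). Without control replicate 1, its highest library, the log2 fold change was -2.83, and EVPL was still called.

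In the hemidesmosome list, ITGB4, the integrin subunit that binds plectin, was the only one of 4 genes called. It had 1605, 958 and 952 counts in control and 144, 97 and 107 in CYT, with narrow spread in CYT. Its 8.56-fold fall had a log2 fold change of -3.10 (SE 0.36, adjusted p 0.000748 in edgeR). Its partner subunit ITGA6 had a log2 fold change of -0.96 and was not called (adjusted p 0.0836). ITGA6 is named here after its values were seen.

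Among the 8 desmosome genes tested, 2 fell and 1 rose. PKP3, a plakophilin of the desmosomal plaque, had 2348, 1820 and 1462 counts in control and 323, 106 and 323 in CYT, and fell 6.21-fold (log2 fold change -2.63, SE 0.46, adjusted p 0.0033 in edgeR). PKP4, a related protein of cell junctions, fell 2.35-fold (log2 fold change -1.23, SE 0.30, adjusted p 0.0143). Its call was lost without control replicate 3, CYT replicate 1 or CYT replicate 3 (adjusted p 0.0568, 0.0540 and 0.0648, within 0.00149 to 0.0648 over all alternatives). With the replicate block DSC2, a desmosomal cadherin, was called higher too (log2 fold change 1.26, and 1.2 without the block). Then 2 of the 8 rose, while higher calls over all 15572 genes went from 2373 to 2590. Without control replicate 2 DSC2 was called as well, at a log2 fold change of 1.91.

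DSP encodes desmoplakin. It had 1227, 1262 and 678 counts in control and 1555, 2524 and 1351 in CYT, so that every CYT library was above every control library once scaled. DSP rose 2.07-fold (log2 fold change 1.05, SE 0.33, adjusted p 0.0402 in edgeR). The call was lost whichever single library was left out, at log2 fold changes of 0.76 to 1.19 and adjusted p of 0.0468 to 0.170 (0.00994 to 0.170 over all alternatives), because the fold or the adjusted p then missed its threshold. It was also lost without the filter on low counts (log2 fold change 0.97, adjusted p 0.0627 in edgeR) and by limma on FPKM with either pseudocount (adjusted p 0.0543 and 0.0519).

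In the keratin-binding list, 2 of 10 genes tested fell. FAM83H, which recruits a casein kinase to keratin filaments, had 274, 248 and 215 counts in control and 64, 16 and 38 in CYT (log2 fold change -2.39, SE 0.48, adjusted p 0.00576 in edgeR). TCHP, trichoplein, a keratin-binding protein, had 193, 234 and 182 counts in control and 26, 67 and 44 in CYT (log2 fold change -1.89, SE 0.40, adjusted p 0.00772). For both genes all CYT libraries were below all controls. With the replicate number as a block, 4 of the 10 were called lower, while lower calls over all 15572 genes went from 1901 to 2421. The added genes of this list were PNN (log2 fold change -1.07, and -1.06 without the block) and HSPB1 (-1.01, and -0.83 without it). PNN was also called by DESeq2, without the filter on low counts and without CYT replicate 2 (-1.31). PNN, HSPB1, DSC2 and LMNA are named after their values were seen.

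**Figure D5:**
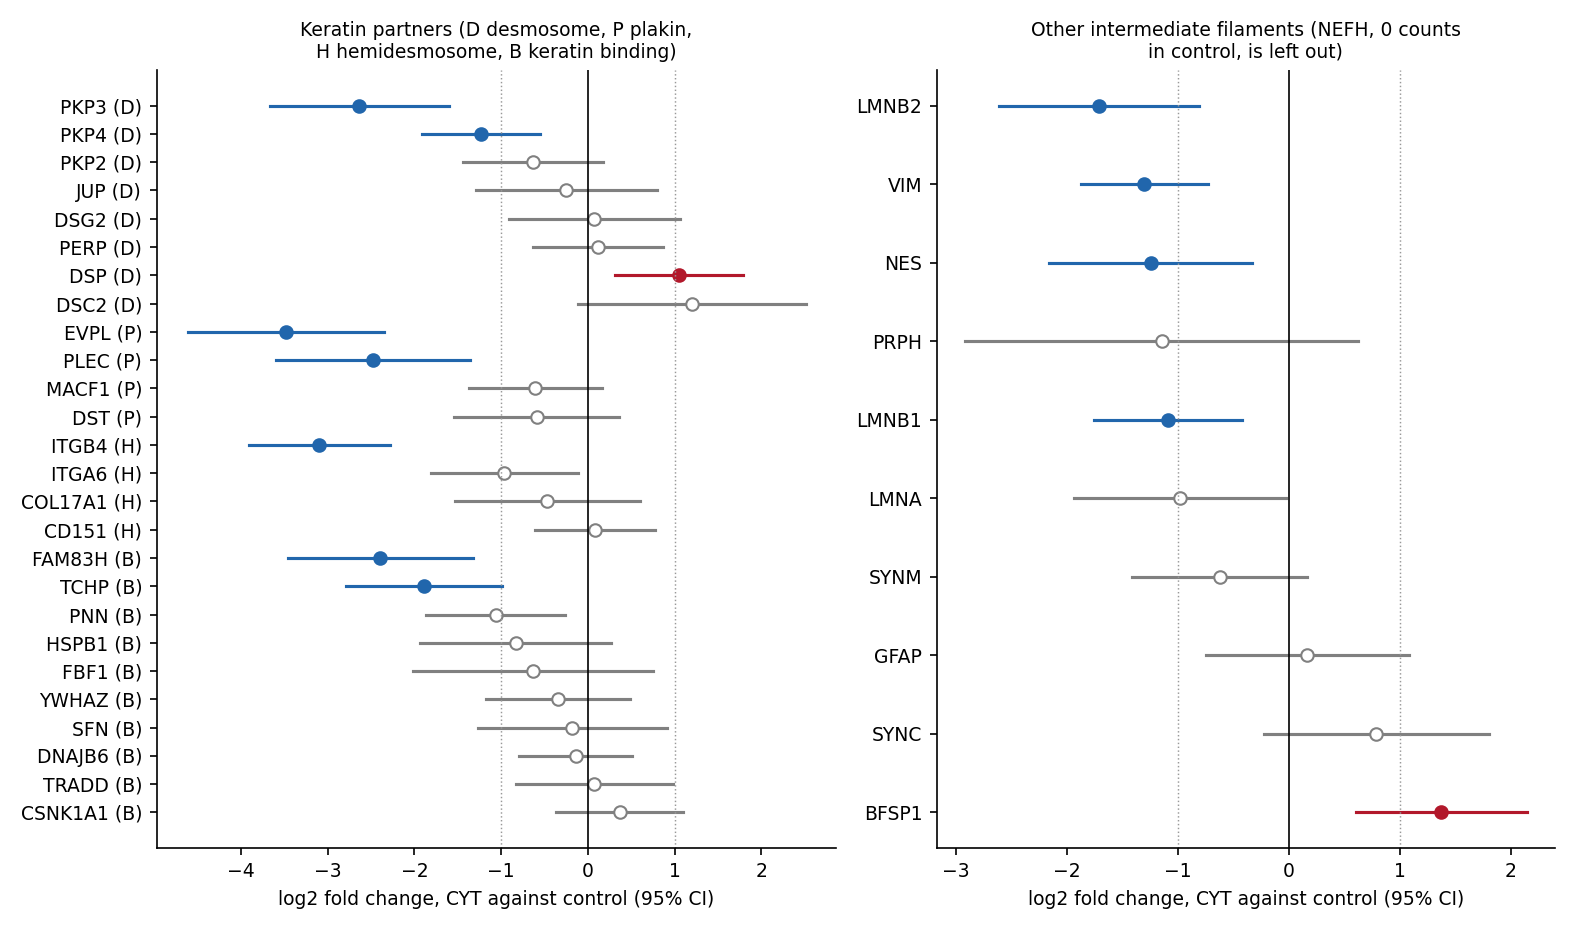
Log2 fold change of CYT against control with 95% confidence intervals for the 26 partner genes tested (left, by list) and for the other intermediate filament genes tested except NEFH (right); filled symbols were called, blue lower and red higher, and dotted lines mark 1 and -1. EVPL, ITGB4, PKP3 and PLEC lie at -3.48, -3.10, -2.63 and -2.48, and DSP at 1.05.

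The other intermediate filaments moved in both directions. Of 16 genes, 11 were tested, 4 fell and 2 rose, with a median log2 fold change of -0.98, also with NEFH taken at its lower bound. The share called was 54.5%, with 36.4% lower and 18.2% higher, beside 27.4%, 12.2% and 15.2% of all genes tested, whose median was 0.01. Of the 5 with a control mean of at least 50 CPM, a floor that favours genes that fell, 4 were called lower and 0 higher, with a median of -1.24. The 2 genes called higher, NEFH and BFSP1, lay below that floor. With the replicate block LMNA, the A-type lamin gene, was called lower too (log2 fold change -1.01, and -0.98 without the block). VIM, the vimentin of mesenchymal cells, was the most abundant of the markers of this line. It had 36428, 44600 and 38144 counts in control and 13599, 15720 and 11463 in CYT. VIM fell 2.47-fold with little spread within either group (log2 fold change -1.30, SE 0.26, adjusted p 0.00535 in edgeR).

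LMNB2, a B-type nuclear lamin, fell 3.27-fold (log2 fold change -1.71, SE 0.40, adjusted p 0.0121 in edgeR). BFSP1, which encodes a beaded filament protein known from the eye lens, had 137, 99 and 130 counts in control and 336, 247 and 234 in CYT. It rose 2.59-fold (log2 fold change 1.37, SE 0.34, adjusted p 0.0159), and the call was lost without control replicate 2 or CYT replicate 1 (adjusted p 0.0524 and 0.0594, within 0.00109 to 0.0594 over all alternatives). NEFH, the heavy neurofilament subunit, had 0 counts in every control library and 16, 42 and 38 in CYT, at least 12.7-fold higher against a floor of 3 counts per library. LMNB1 and NES, named after their values were seen, also fell (log2 fold changes -1.09 and -1.24, adjusted p 0.0228 and 0.0461). The call of LMNB1 was lost without control replicates 1, 2 or 3 or CYT replicate 3 (adjusted p 0.0659, 0.0587, 0.0629 and 0.0973, within 0.00506 to 0.0973 over all alternatives), and that of NES whichever single library was left out (adjusted p 0.0397 to 0.162, with a fold under the threshold in the lowest, and 0.00577 to 0.162 over all alternatives). LMNB1 also missed the fold threshold with upper-quartile normalization (-0.94), with a minimum mean of 5 CPM (-0.99) and by limma on log2(FPKM + 1) (-0.95). NES also missed the adjusted p with upper-quartile normalization (0.0675) and with the minimum of 5 CPM (0.0664).

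Of 11 epithelial transcription and splicing factors, 6 were tested, 1 rose and 1 fell, with a median log2 fold change of -0.36. The share called was 33.3%, beside 27.4% of all genes tested. OVOL1, a zinc finger repressor known from epithelial differentiation, had 0 counts in every control library and 215, 124 and 183 in CYT, at least 68.6-fold higher against a floor of 3 counts per library. ELF3, an epithelial ETS factor, had 86, 30 and 70 counts in control and 10, 4 and 10 in CYT. ELF3 fell 6.63-fold (log2 fold change -2.73, SE 0.62, adjusted p 0.0106 in edgeR), with no overlap between the groups.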

How the data were processed

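RNA of 3 control and 3 CYT libraries was sequenced on the Illumina platform, and the authors aligned clean reads with Hisat2 to hg38. The raw count per gene was deposited by the authors as whole numbers, and the deposited FPKM is the count scaled by gene length and library size; the study's methods name Stringtie for FPKM. The program that made the raw counts, its strand setting and its annotation are not given in the sources used here. The counts were tested in R 4.3.3 with edgeR 4.0.16: filterByExpr (minimum count 10), TMM normalization and the quasi-likelihood test over 15572 genes, with Benjamini-Hochberg adjustment. CPM values are TMM-normalized. The common biological coefficient of variation was 37.5%. Chi-square per gene between replicates was at least 25.0, so no library was a copy of another. Standard errors and confidence intervals were derived from each estimate and its F statistic. A group at 0 was given a floor of 3 counts per library, which covers counting error only. Ratios and sums were compared by the two-sided exact permutation test over libraries.

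The members and the lists of genes were chosen with earlier results of these data known. The genes named are the 10 members; of the partner, filament and factor lists the called genes, up to 4 per list by adjusted p; VIM; overlapping genes and pseudogenes; the 3 genes nearest to KRT8 and to KRT18; and others named as chosen later. Same-numbered control and CYT libraries deviated together, with correlations of 0.188, 0.458 and 0.124 across genes, and the labels number both groups 1 to 3, so a replicate block was fitted too. Control 1 with CYT 3 (0.303) and control 3 with CYT 1 (0.201) correlated more than pairs 1 and 3 did, and the other 4 differently numbered pairs were at -0.37 to -0.21, so the correlations alone do not single out this numbering. Other alternatives were DESeq2 1.42.0, limma 3.58.1 on FPKM, upper-quartile normalization, other filters, leaving out each library, and summed near-identical genes. Transcripts and loci came from GENCODE release 29 (GRCh38). The count fits were also run on simulated counts, and the outcome of that run is not reported here. A marker gene and a stretch of sequence are not reported here.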

Additional observations from a re-analysis of the deposited data

How the results depend on the processing

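Over the settings run, KRT19 and KRT80 were called lower under every alternative, with log2 fold changes from -3.83 to -3.06 and from -3.38 to -2.60. Of 119 values for the 9 members tested, 103 kept their direction and side of the threshold. KRT15 was not called by limma on log2(FPKM + 1), where the log2 fold change was -0.27 (adjusted p 0.0336). KRT18 was called without the filter on low counts, by limma with either pseudocount and with the replicate block. KRT81 turned positive under 8 alternatives: DESeq2 (0.0231), upper-quartile normalization (0.145), limma on log2(FPKM + 1) (0.0281) and log2(FPKM + 0.1) (0.0713), the replicate block (0.0485), and without control replicate 1, CYT replicate 1 or CYT replicate 2, with -0.27 to 0.45 over all single libraries left out. The cause was not tested.

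The number of members called was 2 to 4 under every alternative. Upper-quartile normalization shifted the median over all tested genes from 0.01 to 0.16 on the log2 scale, and the members' values with it. The other keratin, partner, filament and factor genes called were 16, and 10 by limma on log2(FPKM + 1), where a pseudocount of 1 shrinks the change of low genes; the partner genes alone were 8 and 5. With the replicate block, that is with the libraries paired by number, 4 members, 20 listed genes and 11 partner genes were called. Calls over all 15572 genes tested went from 4274 to 5011 with the block, and lower calls from 1901 to 2421. Besides KRT18, the block added DSC2, PNN, HSPB1 and LMNA, and it changed no other call among the members and lists. Of 256 values for 20 other called genes with a fold change or bound in the text, 36 lost the call and 0 reversed, and of 90 values for 7 that were not called, 10 gained it and 0 reversed; besides LMNB1 and DSP, limma on log2(FPKM + 1) did not call PKP4, TCHP, NEFH and ELF3, whose fold was then under the threshold. The log2 difference of the type I to type II ratio ran from -1.05 to -0.55 and that of the summed keratin level from -1.26 to -0.79, each within 1 SD of the value reported. Depth limits KRT17 and the other scarce keratins.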
